A study of Mus musculus with 6 samples.

Results

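Cells rich in RNA of DNA replication genes were picked out of mouse intestinal organoids at day 1 of culture by 8 genes. A cell barcode was taken as a member where its unique molecular identifiers (UMIs, each marking 1 captured RNA molecule) for Ccne1, Dtl, Clspn and Uhrf1 summed to 5 or more, and its UMIs for Ccnb1, Cdc20, Plk1 and Ube2c summed to below 10. Ccne1 encodes the cyclin that carries cells into S phase, Dtl the adaptor that directs the licensing factor CDT1 to destruction, Clspn the fork mediator of checkpoint signals, and Uhrf1 the reader that brings the maintenance methyltransferase to copied DNA. The second set of 4 genes peaks in G2 and mitosis. Members were thus chosen by measured values, the UMIs of these 8 genes. The rule kept 756 of 5576 barcodes (13.6%, exact 95% interval 12.7 to 14.5) in day-1 library 1. It kept 660 of 5304 (12.4%, 11.6 to 13.4) in day-1 library 2. That is 1416 of 10880 day-1 barcodes, out of 29565 in the series.

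The organoids, small epithelial cultures of the gut, came from wild-type C57BL/6 mice aged 8 weeks. Both day-1 libraries were vehicle (DMSO) cultures taken after 24 hours in ENR medium (EGF, Noggin and R-spondin) with Wnt3a-conditioned medium, the ROCK inhibitor Y-27632 and the GSK3 inhibitor CHIR99021. The other 4 libraries were taken at day 4 (96 hours), from cultures with vehicle, 5 µM of an RXR antagonist, 10 µM of all-trans retinoic acid or vitamin A-free medium, with 1 library each. Compounds were given at day 0 and again at day 3, from when these cultures had ENR alone. Doses carry the unit "μm" in the labels, which was taken as micromolar. Debris and dead cells had been removed by sorting. The labels do not tie a library to an animal or culture, so p-values measure only the spread between these libraries, which may be technical. Where classes of the same library were compared, that spread is of the difference between the classes, not of the levels.

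In a dividing cell, licensing factors load the MCM helicase onto origins in G1, cyclin E and CDK2 together with E2F transcription factors open S phase, and helicase activation then lets polymerases copy both strands. Histone genes and nucleotide enzymes are drawn on at the same time, after which the cell passes through G2 into mitosis. In the gut, crypt stem cells and their transit-amplifying daughters divide, and absorptive and secretory cells leave the cycle as they mature.

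Promoters of the genes that stood out most in the members are printed because E2F sites near the start are the textbook feature of S-phase genes. They belong to the genes with the highest log2 fold change against the other day-1 cells among 3 lists (origin licensing, replication fork and G1/S control). Of 5 such genes, Ccne2 is named only. The windows run from 250 bases before to 50 after the start (RefSeq, GRCm38.p6) and are written 5′ to 3′ on the gene's strand. Capitals mark matches on either strand to the E2F motifs TTCCCGC and TTTGGCGC, the cell cycle homology element TTTGAA or the CCAAT box. E2f7, a repressor of the E2F family, lies at chr10:110745189-110745488 (plus strand). Cdc6, which loads the MCM helicase, lies at chr11:98907901-98908200 (plus strand). Fbxo5, an inhibitor of the anaphase-promoting complex, lies at chr10:5805416-5805715 (minus strand). Atad5, which helps unload the sliding clamp, lies at chr11:80089150-80089449 (plus strand).
E2f7: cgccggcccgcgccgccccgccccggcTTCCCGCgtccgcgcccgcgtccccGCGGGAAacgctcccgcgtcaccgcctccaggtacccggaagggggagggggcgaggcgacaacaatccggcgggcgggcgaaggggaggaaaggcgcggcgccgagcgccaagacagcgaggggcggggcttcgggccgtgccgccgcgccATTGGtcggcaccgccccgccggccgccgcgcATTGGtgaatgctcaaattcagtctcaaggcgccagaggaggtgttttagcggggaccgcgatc
Cdc6: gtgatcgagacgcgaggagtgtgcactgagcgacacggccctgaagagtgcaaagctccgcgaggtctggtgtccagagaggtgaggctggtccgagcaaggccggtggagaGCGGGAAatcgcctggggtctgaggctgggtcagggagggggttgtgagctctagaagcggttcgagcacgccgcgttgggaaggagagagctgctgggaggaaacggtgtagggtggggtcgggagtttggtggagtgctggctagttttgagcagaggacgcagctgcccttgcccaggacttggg
Fbxo5: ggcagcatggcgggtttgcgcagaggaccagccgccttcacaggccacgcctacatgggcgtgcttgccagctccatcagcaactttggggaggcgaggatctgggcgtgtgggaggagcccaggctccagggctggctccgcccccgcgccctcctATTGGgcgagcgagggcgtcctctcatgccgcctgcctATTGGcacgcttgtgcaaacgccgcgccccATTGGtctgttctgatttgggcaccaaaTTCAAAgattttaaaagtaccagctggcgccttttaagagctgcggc
Atad5: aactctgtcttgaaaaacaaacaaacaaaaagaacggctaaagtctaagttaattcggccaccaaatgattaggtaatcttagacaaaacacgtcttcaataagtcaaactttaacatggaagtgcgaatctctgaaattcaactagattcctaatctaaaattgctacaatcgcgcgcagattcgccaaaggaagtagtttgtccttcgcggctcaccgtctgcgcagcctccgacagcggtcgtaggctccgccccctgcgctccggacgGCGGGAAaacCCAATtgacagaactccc
Counted from the first printed base, TTCCCGC was at bases 28 to 34 of E2f7 as printed and at bases 53 to 59 on the opposite strand. It was at bases 113 to 119 of Cdc6 and 273 to 279 of Atad5, both on the opposite strand. Fbxo5 held no match to it and had TTTGAA at bases 254 to 259, on the opposite strand. No motif match overlapped another in these 4 windows. TTCCCGC was in 22 of the 65 promoters (33.8%) found for the 81 tested genes of those lists, against 8.59% of the 10077 promoters of all genes tested and 4.66% of the table's 27025. TTTGGCGC was in 12.3% of the 65, against 1.06% and 0.537%. TTTGAA (13.8%, 12.3% and 18.1%) and CCAAT (50.8%, 39.2% and 37.9%) differed less between the sets. A match describes these letters only and is not a measured binding site.

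The gate's own genes were high in the members by construction. Levels are given as CPM, a gene's UMIs per 1000000 UMIs summed over the cells of a class, and are compared between cells for 1 gene, not between genes. Ccne1 stood at 163 and 176 CPM in the members of libraries 1 and 2, Dtl at 102 and 94.2 CPM, Clspn at 197 and 194 CPM, and Uhrf1 at 162 and 148 CPM. Most members showed more than 1 of the 4 genes. All 4 had a UMI in 41.5% and 40.9% of members and 3 of 4 in 46.0% and 48.2%, while 2 members in each library passed on 1 gene alone. Clspn alone reached 5 UMIs in 95 and 62 members. The members just inside the limit, with a sum of 5, numbered 165 and 138 at median depths of 10525 and 11473.5 UMIs. Just outside it, the barcodes with a sum of 4 (and fewer than 10 mitosis UMIs) numbered 206 and 154 at 10280 and 10852 UMIs. At the other limit, 80 and 45 members had a mitosis sum of 9, and 77 and 43 barcodes with 10 were left out.

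The other day-1 barcodes fell into 2 classes. Mitotic-gate cells, with 10 or more UMIs of Ccnb1, Cdc20, Plk1 and Ube2c, numbered 2915 (52.3%) and 2345 (44.2%). Cells below both gates numbered 1905 (34.2%) and 2299 (43.3%). The second limit took out many barcodes that met the first: of 1731 and 1154 barcodes with a replication sum of 5 or more, 975 (56.3%) and 494 (42.8%) were mitotic-gate cells, at median depths of 18417 and 17227 UMIs. The gate counts UMIs and therefore moves with depth. Median depth was 12331 and 11905 UMIs in the members, 14773 and 14897 in mitotic-gate cells, and 7053 and 8826 below both gates. With every barcode thinned to 5000 UMIs, the members had a median of 2372 detected genes in both libraries, against 2351 and 2324 in the other cells. Mitochondrial UMIs made up a median of 2.89% and 2.81% in the members. A doublet caller's top-scoring barcodes made up 2.65% and 3.33% of members and 6.21% and 6.31% of mitotic-gate cells.

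Over the series, libraries held 3570 to 5576 barcodes and 49364894 to 66406098 UMIs. Any pair of libraries shared 2 to 17 barcodes, and the 2 sets of members shared 0. Markers of other tissues were near 0 in the members. The 14 immune markers summed to 2.11 and 2.30 CPM, with 11 at 0 in each library, Ptprc among them. The 11 fibroblast and smooth muscle markers summed to 1.27 and 1.81 CPM, the 6 endothelial markers to 3.49 and 1.94 CPM, and the 6 red blood cell markers to 0. The epithelial marker Epcam stood at 3058 and 3202 CPM.

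The name was checked against replication genes that the rule did not use. Of 16 such markers, 15 were highest in the members in both libraries. The exception was Tyms, the thymidylate synthase, at 253 and 232 CPM in the members and 256 and 236 CPM in mitotic-gate cells. Together the 16 summed to 2853 and 2766 CPM in the members, against 2014 and 1656 in mitotic-gate cells and 1631 and 1024 below both gates. The 10 mitosis markers summed to 1606 and 1381 CPM in the members and 3081 and 3283 in mitotic-gate cells. They stood at 1272 and 667 CPM below both gates, so the members were not free of mitotic RNA. The members were therefore RNA-defined cells rich in replication transcripts with intermediate mitotic transcripts, and DNA content was not measured here.

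**Figure D1:**
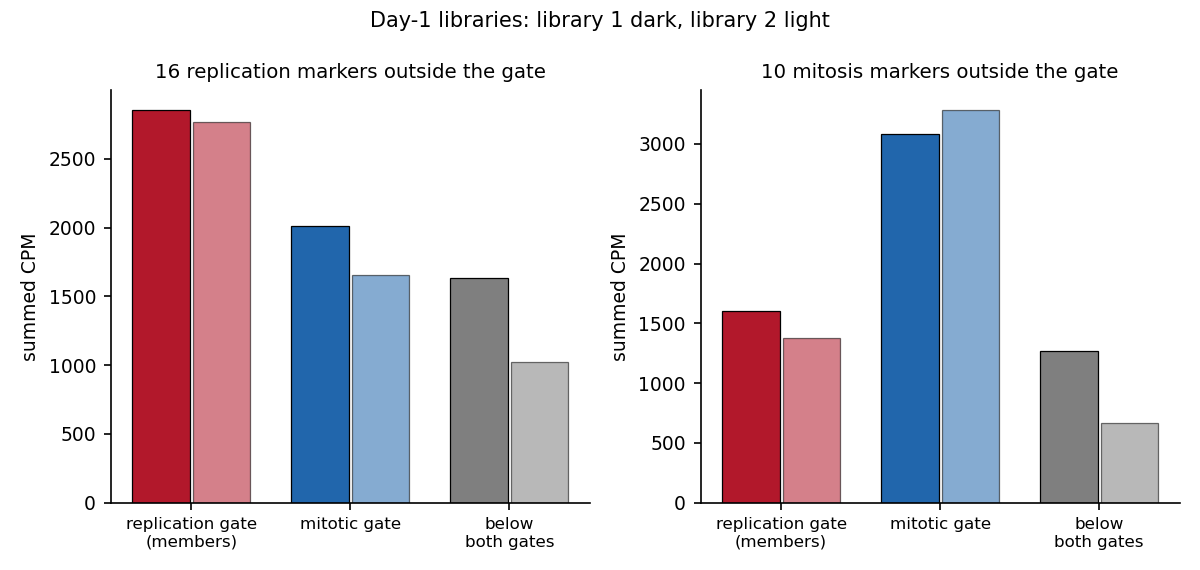
Summed CPM of 16 replication markers (left) and 10 mitosis markers (right) that the gate did not use, for each class of day-1 cells. Each bar is 1 library (library 1 dark, library 2 light), with no error bar. Members had the highest replication sums (2853 and 2766) and lay between the other classes in mitosis sums.

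Firstly, the members were set against all other cells of the same library. Because the rule chose the members within the same contrast, these fold changes describe the chosen cells and carry no test. A gene is counted as past the limit where its adjusted p from edgeR's quasi-likelihood fit with library as a block was under 0.05. Of 15097 genes tested, 1048 were past it and higher in the members (6.94%) and 1251 lower (8.29%), or 15.2% in all. Without the library block the counts were 0 and 12, and with DESeq2 207 and 299. Many of the lowest genes in the members belonged to secretory cells, led by hormones: Gip was at 1.06 and 0.968 CPM in the members and 63.7 and 129.9 CPM in the other cells, and Gcg, which encodes glucagon and GLP-1, at 3.59 and 15.0 CPM against 189 and 605 CPM. Muc2, the main mucin of goblet cells, was at 1.06 and 5.44 CPM against 14.8 and 54.2 CPM. Sst had 0 UMIs in the members of library 1, where 3 UMIs as the floor put it at least 34.4-fold lower. Low hormone RNA was not particular to the members. Gcg reached 10 UMIs in 0 and 1 members and in 0 of 2915 and 5 of 2345 mitotic-gate cells. Below both gates it did so in 46 of 1905 and 95 of 2299 cells.

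Genes that start S phase were among the highest. Ccne2, the second E-type cyclin, was at 37.8 and 38.0 CPM in the members and 13.6 and 8.01 CPM in the other cells, a log2 fold change of 1.81 (SE 0.10). The members of both libraries lay above both sets of other cells. E2f7 was at 21.9 and 17.3 CPM against 8.82 and 4.84 CPM, and E2f1, the activator that drives S-phase genes, at 44.5 and 46.8 CPM against 26.2 and 17.5 CPM. Of 32 G1/S control genes, 18 were higher and 7 lower, with a median log2 fold change of 0.25 beside -0.01 for all genes. Skp2, which marks the inhibitor p27 for destruction, and Cdk2, the kinase partner of cyclin E, were among the higher (log2 fold changes 0.86 and 0.82). The lower ones were the cyclin Ccna2, Cks1b, E2f5 and 4 inhibitors of cyclin-dependent kinases, Cdkn1a, Cdkn1b, Cdkn1c and Cdkn2d. Cdkn2d, which encodes p19, was at 5.91 and 4.84 CPM against 10.8 and 13.1 CPM. Of the D-type cyclins, which act earlier in G1, Ccnd1 and Ccnd3 were higher by less (log2 fold changes 0.27 and 0.36), and Ccnd2, at 717 and 703 CPM against 709.8 and 616 CPM, was not past the limit.

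Origin licensing genes were higher in 12 of 15 cases, with a median log2 fold change of 0.76. Cdc6 was at 56.5 and 55.3 CPM in the members and 26.5 and 17.3 CPM in the other cells (log2 fold change 1.35, SE 0.08). Its partner Cdt1 was at 95.7 and 92.4 CPM against 62.8 and 42.3 CPM. All 6 MCM helicase subunits were higher, from Mcm7 (log2 fold change 0.60) to Mcm4 (1.08, 179 and 163 CPM against 98.8 and 64.0 CPM). Mcm3 was at 297 and 278 CPM against 176 and 117 CPM. The origin recognition subunits were split. Orc6, Orc1 and Orc2 were higher, and Orc3, Orc4 and Orc5 were not past the limit, with Orc4 at 47.4 and 51.1 CPM against 48.5 and 45.6 CPM. Gmnn, which encodes the licensing inhibitor geminin, was at 299 and 302 CPM against 243 and 186 CPM.

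Helicase activation genes were higher in 12 of 13 cases, with a median of 0.48. Cdc45, which joins the helicase as it fires, was at 53.1 and 50.1 CPM against 31.9 and 23.2 CPM, and Donson at 34.5 and 32.3 CPM against 20.6 and 17.5 CPM. Cdc7, the kinase that fires origins, was at 16.4 and 15.2 CPM against 11.0 and 8.10 CPM. Its activator Dbf4 was the exception in this list, at 73.8 and 67.1 CPM against 104 and 90.4 CPM, a log2 fold change of -0.48. It stood at 118 and 120.3 CPM in mitotic-gate cells and at 58.6 and 35.0 CPM below both gates, so the direction turned (log2 fold change 0.60) when mitotic-gate cells were left out.

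At the fork, 30 of 34 genes were higher and 0 lower, with a median of 0.53. Atad5 was at 49.5 and 46.6 CPM against 26 and 18.5 CPM and Rpa2, a subunit of the single-strand binding protein, at 155 and 153 CPM against 90.6 and 67.7 CPM. Wdhd1 and the clamp loader subunit Rfc3 had log2 fold changes of 0.93 and 0.91. The sliding clamp Pcna was at 360.0 and 307 CPM against 243 and 172 CPM. Pold4, Rfc5, Rnaseh2b and Rnaseh2c were not past the limit. Among 25 nucleotide synthesis genes, 21 were higher and 0 lower (median 0.34), led by the salvage kinase Dck at 46.1 and 40.5 CPM against 25.8 and 17.8 CPM. Rrm2, the regulated subunit of ribonucleotide reductase, was at 322 and 348 CPM against 214 and 177 CPM.

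Checkpoint and repair genes were higher in 23 of 29 cases and lower in 0 (median 0.48). Ung, the glycosylase that removes uracil from new DNA, was at 101 and 107 CPM against 44.6 and 26.8 CPM (log2 fold change 1.56, SE 0.07). The mismatch repair subunit Msh6 was at 69.9 and 76.7 CPM against 42.2 and 27.0 CPM. Brca1 was at 41.9 and 42.0 CPM against 22.9 and 15.4 CPM, and its partner Bard1 at 20.9 and 16.9 CPM against 10.7 and 7.90 CPM. Atr, the kinase that senses stalled forks, was at 23.5 and 19.8 CPM against 24.4 and 17.2 CPM and was not past the limit, whereas its target kinase Chek1 had a log2 fold change of 0.72. Other genes of the highest 12 were Slfn9 (139.6 and 124 CPM against 65.2 and 37.3 CPM), Tcf19 (37.9 and 47.9 CPM against 18.6 and 14.4 CPM) and Wdr76 (60.5 and 64.8 CPM against 31.0 and 21.0 CPM).

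Genes that copy chromatin were higher in 17 of 20 cases and lower in 0 (median 0.31). Both large subunits of the histone chaperone CAF-1 were among them, with Chaf1b at 74.5 and 75.5 CPM against 43.9 and 31.9 CPM and Chaf1a at 104 and 105 CPM against 63.2 and 45.8 CPM. The remodeller Hells was at 231 and 206 CPM against 149 and 92.2 CPM. Slbp, which binds the stem-loop at the end of replication-dependent histone messengers, was at 339.8 and 329 CPM against 219 and 159.9 CPM. Of 22 histone genes tested, 10 were higher and 3 lower (H2afx, H3f3b and H1f0). The linker histone Hist1h1a was at 48.6 and 47.2 CPM against 21.9 and 14.2 CPM and Hist1h1b at 806 and 688 CPM against 524 and 388 CPM. UMIs of near-identical histone genes may be assigned uncertainly, and messengers without a poly(A) tail are largely missed by 3-prime libraries, so these levels are of the captured part only. Cohesin and sister chromatid cohesion genes were mixed, with 5 higher and 1 lower (Rad21) of 12 and a median of 0.03. With DESeq2 the counts of higher genes were 6 for helicase activation, 13 for checkpoint and repair, 10 for chromatin copying, 4 for histones and 1 for cohesion, and 3 G1/S genes were lower.

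Detection at equal depth was used to find the genes whose pattern was most like that of the gate. After thinning to 5000 UMIs, which left out 5 and 6 members and 510 and 604 other cells, the share of barcodes with a UMI was set in members against other cells of the same library. The largest gaps were for Atad2, a chromatin-bound ATPase, in 67.4 and 66.8% of members against 40.9 and 30.9% of other cells, and Mcm3, in 75.4 and 72.5% against 50.6 and 37.7%. Slfn9 was seen in 48.9 and 45.0% against 22.7 and 14.6% and Ung in 38.1 and 39.6% against 17.9 and 11.8%. The next genes by this measure were Mcm4, Slbp, Hells, Rrm2, Hist1h1b and Orc6. At full depth the shares for Atad2 were 90.9% and 91.5% of members against 62.1% and 49.3% of other cells. Among day-1 cells below both gates, at the same depth, Atad2 was seen in 36.6% and 20.8% and Mcm3 in 45.7% and 28.5%. In day-4 vehicle cells below both gates the shares were 5.37% and 7.57%. The background of free RNA in the day-1 libraries was not measured. Ccne2, highest in fold change among genes at 20 CPM or more, was sparse, with a UMI in 16 and 20.5% of members and 5.82 and 3.79% of other cells.

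The members were then set against each class alone. Against mitotic-gate cells, 144 of 14131 genes were past the limit and higher (1.02%) and 171 lower (1.21%), or 2.23% in all, as a description of the gated classes. Ccne2 was at 13.3 and 6.32 CPM in mitotic-gate cells, a log2 fold change of 1.96, Ung at 42.8 and 23.9 CPM (1.66) and Cdc6 at 27.8 and 19.3 CPM (1.24). Among the lists, origin licensing had 8 of 15 genes higher (median 0.65), the fork 9 of 34 (0.33) and checkpoint and repair 7 of 29 (0.31). Nucleotide synthesis had 2 of 25 (0.17) and chromatin copying 4 of 20 (0.16). Licensing genes thus had the highest median of these lists, and the difference between lists was not tested.

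Of 47 G2 and mitosis genes, 0 were higher and 31 lower against mitotic-gate cells (median -0.98). Cenpf, a kinetochore protein, was at 50.3 and 45.6 CPM in the members and 283 and 319.7 CPM in mitotic-gate cells (log2 fold change -2.70). Nusap1, a spindle protein, was at 20.0 and 23.2 CPM against 90.6 and 128 CPM. Cdc25b, the phosphatase that starts mitotic entry, was at 7.60 and 6.65 CPM against 31.9 and 45.5 CPM, and Fam83d, a spindle component, at 3.27 and 3.15 CPM against 22.5 and 23.2 CPM. Mki67, which marks cycling cells, stood at 274 and 233 CPM against 422 and 422 CPM, and Ccna2 at 178 and 142 CPM against 246 and 243 CPM. Below both gates Mki67 was at 189 and 106 CPM, so the members lay between the 2 classes in each library.

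**Figure D2:**
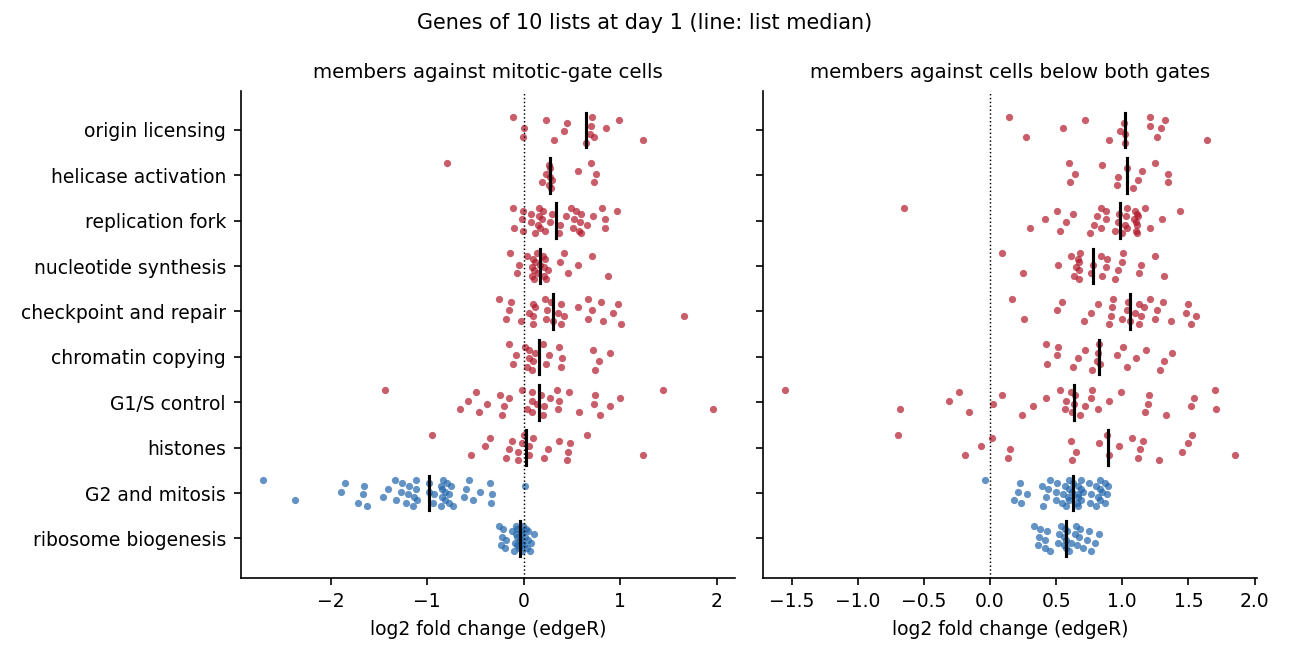
Fitted log2 fold changes of the genes of 10 lists, members against mitotic-gate cells (left) and against cells below both gates (right). Each point is 1 gene and the black line is the list median. Origin licensing had the highest median on the left (0.65), while G2 and mitosis genes had a median of -0.98 on the left and 0.62 on the right.

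Goblet and Paneth genes also differed between the members and mitotic-gate cells, while few enteroendocrine genes were past the limit. Of 17 enteroendocrine genes tested, 2 were higher, 1 was lower and 14 were not past it (median 0.006). Of 11 goblet genes, 8 were lower in the members (median -2.06), and of 9 Paneth genes 5 were lower. Tff3, the trefoil peptide of goblet cells, was at 94.2 and 150.1 CPM in the members and 200.3 and 696 CPM in mitotic-gate cells. Reg4 was at 6.02 and 29.3 CPM against 31.6 and 156 CPM, Spink4 at 18.9 and 101 CPM against 103 and 433 CPM, and the Paneth defensin Defa24 at 11.4 and 125 CPM against 135 and 498 CPM. These genes were high in few barcodes. Spink4 reached 10 UMIs in 2 of 756 and 7 of 660 members and in 52 of 2915 and 112 of 2345 mitotic-gate cells. Defa24 reached it in 1 and 5 members and in 42 and 92 mitotic-gate cells. Defensin UMIs may be assigned uncertainly within the family. With a replication limit of 3 UMIs in place of 5, the lower counts were 0 for goblet, 2 for Paneth and 11 for G2 and mitosis genes, and the higher count for licensing was 2.

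Ghrl, the ghrelin hormone gene, had the highest log2 fold change of all genes named against mitotic-gate cells (3.26), at 22.7 and 24.9 CPM in the members and 1.52 and 3.61 CPM in that class. It rested on 3 barcodes. Without barcodes of 10 or more Ghrl UMIs, 2 in library 1 and 1 in library 2, the members stood at 2.33 and 3.88 CPM, and the mean log2 ratio was 0.24. Enterocyte genes were past the limit in 0 of 26 cases in either direction, with Fabp1, the fatty acid binding protein, at 2103 and 3526 CPM against 2137 and 3839 CPM. Ribosome biogenesis genes were past it in 0 of 30 cases, with Ncl at 2796 and 2493 CPM against 2808 and 2440.0 CPM. The same held for the 22 crypt stem cell genes and the 21 regenerative genes tested.

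Against cells below both gates, 2495 of 14131 genes were past the limit and higher (17.7%) and 2623 lower (18.6%), or 36.2% in all. Most genes of the replication lists were higher: 13 of 15 licensing genes (median 1.02), 13 of 13 helicase activation genes (1.03), 33 of 34 fork genes (0.99) and 27 of 29 checkpoint and repair genes (1.06). The exception at the fork was Pold4, at 47.8 and 70.0 CPM in the members and 74.0 and 108 CPM below both gates. Hist1h1a (48.6 and 47.2 CPM against 18.7 and 8.74 CPM), Fbxo5 (109 and 98.3 CPM against 42.9 and 21.9 CPM) and Cdc6 (against 22.7 and 13.7 CPM) had the highest log2 fold changes among genes at 20 CPM or more. Ribosome biogenesis genes were higher in 30 of 30 cases (median 0.57), with Ncl at 1808 and 1305 CPM below both gates. G2 and mitosis genes were higher in 25 of 47 cases (median 0.62).

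Differentiated genes stood lower in the members than below both gates. All 17 enteroendocrine genes tested were lower (11 where cells below both gates were drawn to the members' depth). Chgb, a granin of hormone granules, was at 21.9 and 75.5 CPM in the members and 1179.5 and 3206 CPM below both gates, and Cck at 38.4 and 233 CPM against 2439 and 5664 CPM. Sst and Pyy had 0 UMIs in the members of library 1. Taking 3 UMIs as the floor there, Sst was at least 139-fold lower and Pyy at least 95.6-fold lower. Enterocyte genes were lower in 23 of 26 cases (median -1.38), with Fabp1 at 5902 and 8574 CPM, Apoa1 at 24.7 and 116 CPM against 304 and 785 CPM and the cytokeratin Krt20 at 122 and 238 CPM against 333 and 546 CPM. The members still held absorptive RNA: the enterocyte list summed to 6720 and 10421 CPM in them, beside 6935 and 11134 CPM in mitotic-gate cells.

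**Figure D3:**
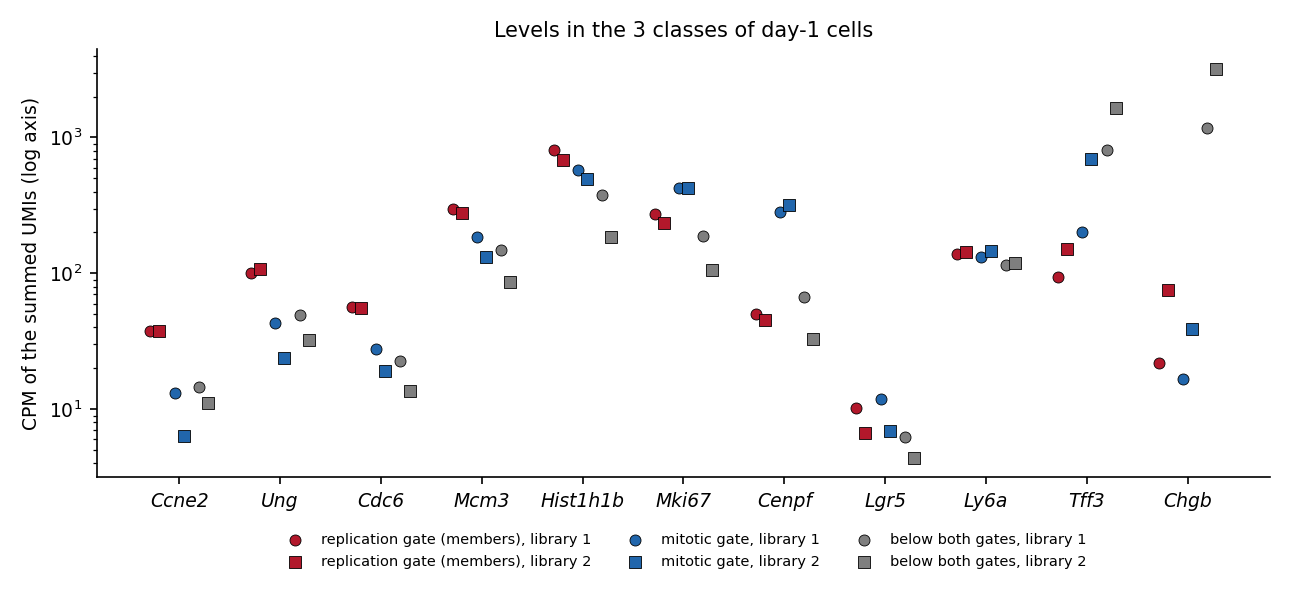
CPM of 11 genes in the members (red), mitotic-gate cells (blue) and cells below both gates (grey) of day 1, on a log axis. Each point is 1 library (circle library 1, square library 2). Ccne2, Ung, Cdc6 and Mcm3 were highest in the members of both libraries, and Cenpf was highest in mitotic-gate cells.

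Crypt stem cell genes were higher in 13 of 22 cases against cells below both gates (median 0.38). Lgr5, the R-spondin receptor that marks crypt stem cells, was at 10.2 and 6.65 CPM in the members, 11.8 and 6.97 CPM in mitotic-gate cells and 6.27 and 4.4 CPM below both gates. Olfm4, another crypt marker, was at 3.17 and 1.45 CPM in the members. Genes known from regenerating and fetal gut were at like levels in members and mitotic-gate cells. Ly6a, which encodes Sca-1, was at 139 and 144 CPM in the members, 133 and 146 CPM in mitotic-gate cells and 115 and 119.6 CPM below both gates. Clu, known from revival stem cells, stood at 31.6 and 44.2 CPM in the members and 29.0 and 50.8 CPM in mitotic-gate cells. The galectin Lgals3 was at 941 and 1272 CPM in the members and 885 and 1245 CPM in mitotic-gate cells. Ly6a reached 10 UMIs in 29 of 756 and 30 of 660 members.

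Among themselves the members differed in genes of the later cycle. They were split by the summed UMIs of the 4 mitosis genes into 0 (20 and 57 members), 1 to 3 (198 and 183) and 4 to 9 (538 and 420), with median depths of 9918.5, 10850.5 and 12877 UMIs in library 1 and 10867, 11330 and 12230.5 in library 2. Since the split uses a gate measure, the values are a description. Mki67 stood at 123, 227 and 292 CPM over the 3 bins of library 1 and at 77.2, 185 and 269 CPM in library 2. Ccna2 stood at 51.3, 135 and 194 CPM and at 35.4, 102 and 169 CPM. Hist1h1b, a linker histone made during S phase, followed the same order at 323, 639.5 and 867 CPM and at 175, 498 and 817 CPM. Both libraries therefore showed the same order for all 3 genes.

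Ccne2 and Cdc6 did not follow that order. Ccne2 stood at 46.1, 36.6 and 37.9 CPM over the bins of library 1 and at 48.2, 39.6 and 36.2 CPM in library 2. Cdc6 stood at 97.4, 54.0 and 56.1 CPM and at 74.0, 61.5 and 50.8 CPM. Both were highest in the bin with 0 mitosis UMIs, which held 20 members in library 1 and 57 in library 2. Counting error was not computed for these values. The Ccne2 levels of the bins lay close together, so their order is not established. Mcm2 stood higher in each next bin of both libraries (87.1, 104 and 119 CPM, and 96.5, 104 and 109 CPM), as did Gins2. Mcm3 did so in library 1 (189.7, 295 and 301 CPM) but not in library 2 (259, 292 and 275 CPM). The 16 replication markers summed to 2179, 2823 and 2881 CPM over the bins of library 1 and to 2552, 2757 and 2794 CPM in library 2, higher in each next bin. Splitting by the replication sum instead (5 to 6, 7 to 9, and 10 or more) gave 2727, 2891 and 2966 CPM of the same markers in library 1 and 2624, 2838 and 2878 CPM in library 2.

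**Figure D4:**
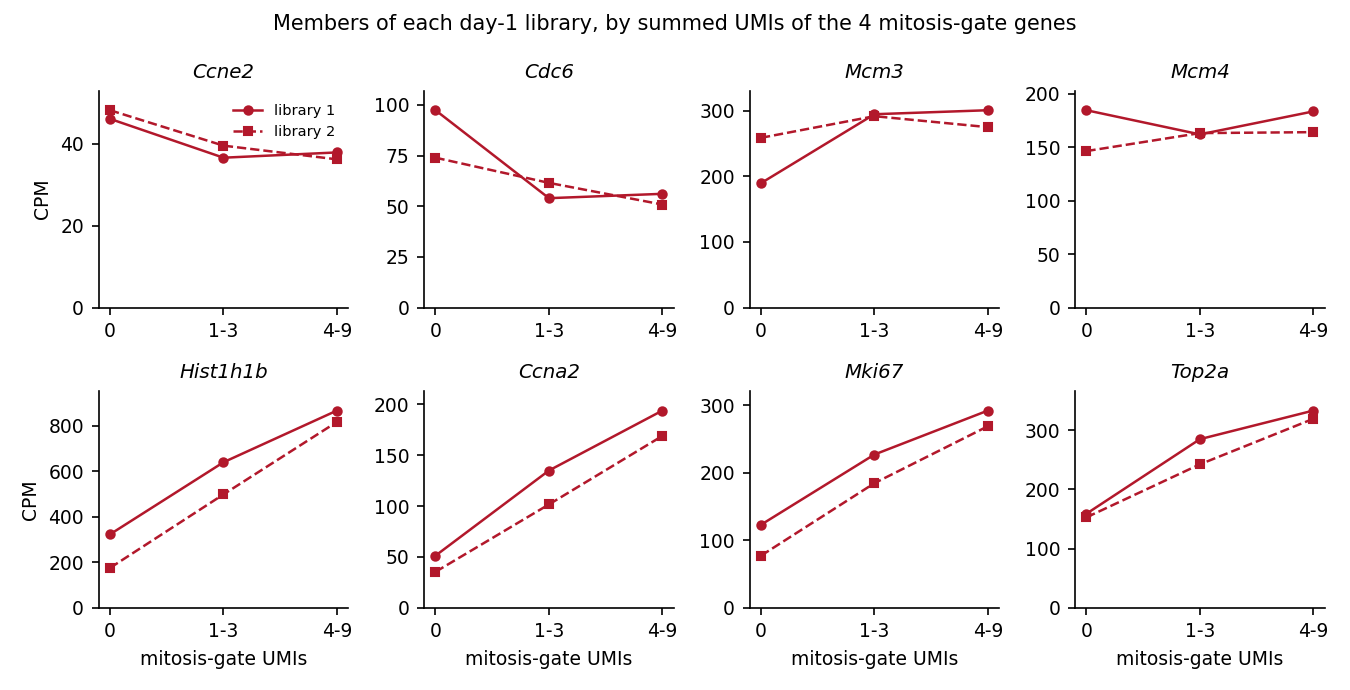
CPM of 8 genes in members split by the summed UMIs of the 4 mitosis-gate genes (0, 1 to 3, and 4 to 9), for library 1 (solid line) and library 2 (dashed line), each axis starting at 0. Hist1h1b, Ccna2, Mki67 and Top2a stood higher in each next bin, while Ccne2 and Cdc6 were highest in the first, which holds 20 and 57 members.

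The members of the 2 libraries were alike in most genes. Of 6191 genes at 20 CPM or more, 66 were at least 1.5-fold apart and 14 at least 2-fold. All 14 were lower in library 1. Defa24 was at 11.4 and 125 CPM in libraries 1 and 2, Cyp3a11, a drug-metabolising enzyme, at 4.44 and 37.6 CPM, Cck at 38.4 and 233 CPM and Apoa1 at 24.7 and 116 CPM. The other cells of the libraries differed in the same direction for these genes. Some of these levels rested on few barcodes. In library 2, 5 of 660 members held 919 of 1030 Defa24 UMIs, and 4 held 1808 of 1924 Cck UMIs. Replication genes were closer, for example Mcm7 at 159.6 and 160.3 CPM and Rfc3 at 122 and 122 CPM.

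The same gate was then applied at day 4, which the rule did not use. It passed 238 of 4787 barcodes (4.97%, exact 95% interval 4.37 to 5.63) with vehicle, below both day-1 shares of 13.6% and 12.4%. With every barcode thinned to 8000 UMIs and shallower ones left out, the shares were 3.18% of 3894 with vehicle at day 4 and 13.8% of 4125 and 10.6% of 4234 at day 1. It passed 26 of 3570 (0.728%) with the RXR antagonist, 124 of 5365 (2.31%) with retinoic acid and 363 of 4963 (7.31%) in vitamin A-free medium. The intervals cover counting error only, and each day-4 condition had 1 library, so these shares were not tested between conditions. Median depth of the passing barcodes was 11950.5 UMIs with vehicle, near the 12331 and 11905 of the day-1 members.

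Gate-passing cells of the day-4 vehicle library were compared with the day-1 members. Of 12599 genes, edgeR's quasi-likelihood test with Benjamini-Hochberg adjustment called 1386 higher and 1386 lower at day 4 (11.0% each, 22.0% in all). The test has 1 day-4 library, which is assumed to vary like the 2 day-1 libraries. Day and medium changed together, so their parts cannot be told apart. DESeq2 called 464 and 513.

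Most replication genes did not pass the test between the days. The gate asked for the same sum of replication UMIs at both days, so like levels are in part set by it. Origin licensing had 3 genes higher and 1 lower of 15 (median log2 fold change 0.17, beside -0.01 for all genes), helicase activation 1 and 0 of 13 (0.16), and the fork 7 and 1 of 34 (0.24). Mcm7 rose from 159.6 and 160.3 to 269.7 CPM (log2 fold change 0.71, SE 0.11, edgeR adjusted p = 3.1e-04), Mcm6 from 182 and 201 to 293 CPM and Mcm5 from 163 and 154 to 241 CPM. Orc2 fell, from 69.6 and 70.0 to 48.0 CPM, though not by DESeq2 (adjusted p = 0.23). Of the fork genes, DESeq2 called 1 higher. Lig1, the ligase that joins new fragments, rose from 137 and 131 to 225 CPM (log2 fold change 0.71, edgeR adjusted p = 4.5e-04). Mcm3 stood at 297 and 278 CPM at day 1 and 323 CPM at day 4, Ccne2 at 37.8 and 38.0 CPM and then 28 CPM, and Cdc6 at 56.5 and 55.3 CPM and then 64.7 CPM, none of which passed the test. Myb, a regulator of crypt progenitors, was the G1/S list member that rose most (from 54.2 and 43.8 to 138 CPM, log2 fold change 1.45), and Ccna2 fell from 178 and 142 to 96.7 CPM.

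G2 and mitosis genes were lower at day 4, with 18 of 47 lower and 1 higher (median -0.36). All cells compared had passed the same limit on mitosis UMIs, which caps their sum but does not make it equal. The median sum was 5 UMIs in the members of both day-1 libraries and 3 UMIs in passing cells at day 4. These genes are of the kind the limit used, and its part in the falls was not tested. Hmmr, a spindle protein, fell from 79.4 and 62.4 to 18 CPM (log2 fold change -2.02, SE 0.21) and the centromeric histone Cenpa from 215 and 151 to 62.7 CPM. Aurkb was the 1 gene that rose. Histones were split, 6 higher and 5 lower of 22, with the variant H2afv up from 214 and 201 to 677 CPM and Hist1h2bc down from 134 and 171 to 39.3 CPM. Ribosome biogenesis had 10 of 30 genes lower and 0 higher. By DESeq2 the lower counts were 10 for G2 and mitosis and 6 for ribosome biogenesis, and 2 histones were higher.

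Crypt stem cell genes were higher in the gate-passing cells of day 4, with 14 of 22 higher and 0 lower (median 1.2). Olfm4 rose from 3.17 and 1.45 CPM to 1038 CPM (log2 fold change 8.73, SE 0.19, edgeR adjusted p = 4.7e-14). It reached 10 UMIs in 90 of 238 passing cells at day 4 (37.8%) and in 0 day-1 members. Mitotic-gate cells of the same day-4 library reached it in 155 of 555 cases (27.9%). Lgr5 rose from 10.2 and 6.65 to 108 CPM (log2 fold change 3.62, SE 0.20, edgeR adjusted p = 2.6e-09), and Smoc2 from 114 and 89.6 to 469 CPM. The Wnt targets Axin2 (from 26.8 and 20.0 to 73.7 CPM) and Ascl2 (from 24.2 and 16.8 to 50.7 CPM) rose as well. Isx, a homeobox gene induced by retinoic acid, rose from 1.16 and 0.605 to 141 CPM (log2 fold change 7.22, edgeR adjusted p = 4.3e-12). The stem list summed to 1446 and 1199 CPM in the day-1 members and to 3736 CPM at day 4.

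Regenerative and fetal-like genes were lower, with 20 of 21 lower and 0 higher. The median log2 fold change was -4.85, or -2.64 with the 5 genes that had 0 UMIs in a group set to their bound. Msln, the surface protein mesothelin, stood at 68.5 and 106 CPM at day 1 and had 0 UMIs at day 4, where 3 UMIs as the floor put it at least 68.5-fold and 106-fold lower. Ly6a fell from 139 and 144 to 2.00 CPM (log2 fold change -6.17, SE 0.27, edgeR adjusted p = 2.6e-10) and Lgals3 from 941 and 1272 to 14.7 CPM (-6.28). S100a6 fell from 916 and 884 to 30.0 CPM and Clu from 31.6 and 44.2 to 1.33 CPM. Each day-1 library lay far above the day-4 library for these genes.

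Glycolysis and hypoxia genes were higher at day 4 in 19 of 20 cases and lower in 0 (median 1.31). Pgk1, a glycolytic kinase, rose from 628 and 673 to 2086 CPM and Slc16a3, the lactate exporter, from 4.44 and 5.81 to 105 CPM. Ddit4, a stress-induced inhibitor of mTOR, rose from 8.45 and 8.23 to 110.4 CPM. Cholesterol synthesis genes were higher in 19 of 22 cases and lower in 1 (median 0.91), with Fdps up from 98.9 and 84.6 to 292 CPM. Immediate early genes were higher in 12 of 19 cases and lower in 0, with Jun up from 60.2 and 79.4 to 499 CPM. Such genes also respond to tissue dissociation, and its part here was not tested. Goblet genes were higher in 8 of 11 cases and lower in 1, Zg16 (from 50.1 and 49.0 to 8.34 CPM). Goblet RNA lay in few barcodes. In the day-1 members, 2 barcodes in each library held 426 of 474 and 331 of 405 Zg16 UMIs. At day 4, 1 barcode held 14 of 25 Zg16 UMIs, and 10 of 238 passing cells held 736 of 862 Tff3 UMIs. Enteroendocrine genes were lower in 7 of 11 cases and higher in 0. Enterocyte genes were lower in 11 of 24 cases, Krt20 among them (from 122 and 238 to 9.0 CPM), and higher in 3, of which Cps1 went from 170.4 and 125 to 745 CPM. With DESeq2, 1 goblet gene was higher, and 1 enteroendocrine and 4 enterocyte genes were lower. The lower count of enteroendocrine genes was 1 without likely doublets.

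A model with the day effect in both gate-passing and other cells asked where the 2 effects differed. Day 4 has 1 library here, so the spread in the fit came only from the 2 day-1 libraries. Its SEs and p-values hold no spread between day-4 libraries. Of 16497 genes, edgeR's quasi-likelihood test with Benjamini-Hochberg adjustment called 2610 with a more positive day effect in gate-passing cells (15.8%) and 2685 with a more negative one (16.3%), or 32.1% in all. Without TMM scaling the split was 4218 to 1643. The make-up of the other cells changed between the days: mitotic-gate cells were 52.3% and 44.2% of barcodes at day 1 and 11.6% with vehicle at day 4, and their part in these differences was not tested. Mybl2, a cell-cycle transcription factor, stood at 59.0 and 56.7 CPM in the day-1 members and 52.7 CPM in passing cells at day 4, while the other cells went from 43.7 and 28.3 to 5.34 CPM (log2 difference 2.32, SE 0.19). It is a gene of the kind the gate was built on, so this is a description. Lig1 went from 108 and 83.3 to 28.3 CPM in the other cells and Cdc6 from 26.5 and 17.3 to 4.47 CPM. Their log2 differences were 2.21 and 2.21. Glycolysis and hypoxia genes and cholesterol synthesis genes had median log2 differences of -0.47 and -0.64, beside -0.03 for all genes. By this fit, the rise of both lists at day 4 was thus larger in the other cells.

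Stem and absorptive genes also differed in their day effect. The other cells pool mitotic-gate cells with cells below both gates, and these classes differed at day 4. Olfm4 reached 10 UMIs in 27.9% of 555 mitotic-gate cells and 4.36% of 3994 cells below both gates. A UMI of Lgr5 was seen in 328 and 406 of them, and in 150 of 238 gate-passing cells. High Olfm4 and Lgr5 were thus shared with the mitotic-gate cells of day 4. Lgr5 stood at 32.5 CPM in the other day-4 cells, a log2 difference of 1.42 in favour of the gate-passing cells (SE 0.18, edgeR adjusted p = 7.2e-14). Olfm4 stood at 233 CPM there (log2 difference 1.28, SE 0.24, edgeR adjusted p = 8.4e-07, DESeq2 adjusted p = 0.16). Krt20 fell in gate-passing cells to 9.0 CPM. In the others it stood at 153 and 331 CPM at day 1 and 194 CPM at day 4 (log2 difference -4.31, SE 0.19). This fall was shared with mitotic-gate cells. A Krt20 UMI was seen in 1509 of 2915 and 1640 of 2345 of them at day 1 and in 77 of 555 at day 4. Below both gates, 2609 of 3994 cells had one at day 4. Gsta1, a glutathione transferase, fell from 929 and 1176 to 44.0 CPM in gate-passing cells and stood at 1050.1 and 1379.8 CPM at day 1 and 1109 CPM at day 4 in the others (log2 difference -4.74, SE 0.09). For Ly6a, at 129 and 137 CPM at day 1 and 2.5 CPM at day 4 in the others, the difference was -0.70 (edgeR adjusted p = 0.39) and did not pass.

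In the other day-4 libraries the gate-passing cells are described only. They met the same limit on replication UMIs, which in part sets the levels of replication genes. Replication genes were at like levels in all 4: Mcm3 at 323 CPM with vehicle, 322 CPM with the RXR antagonist, 333 CPM with retinoic acid and 341 CPM in vitamin A-free medium. Olfm4 stood at 1038, 16.8, 619.5 and 1121 CPM in that order. Ly6a stood at 2.00, 1865, 5.54 and 5.61 CPM, and Clu at 1.33, 283, 6.15 and 4.44 CPM. The antagonist library, which has 26 passing cells at a median depth of 17438.5 UMIs, was therefore the 1 with high Ly6a and Clu and low Olfm4. Fabp1 stood at 1213, 969, 8828 and 685 CPM, highest with retinoic acid.

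**Figure D5:**
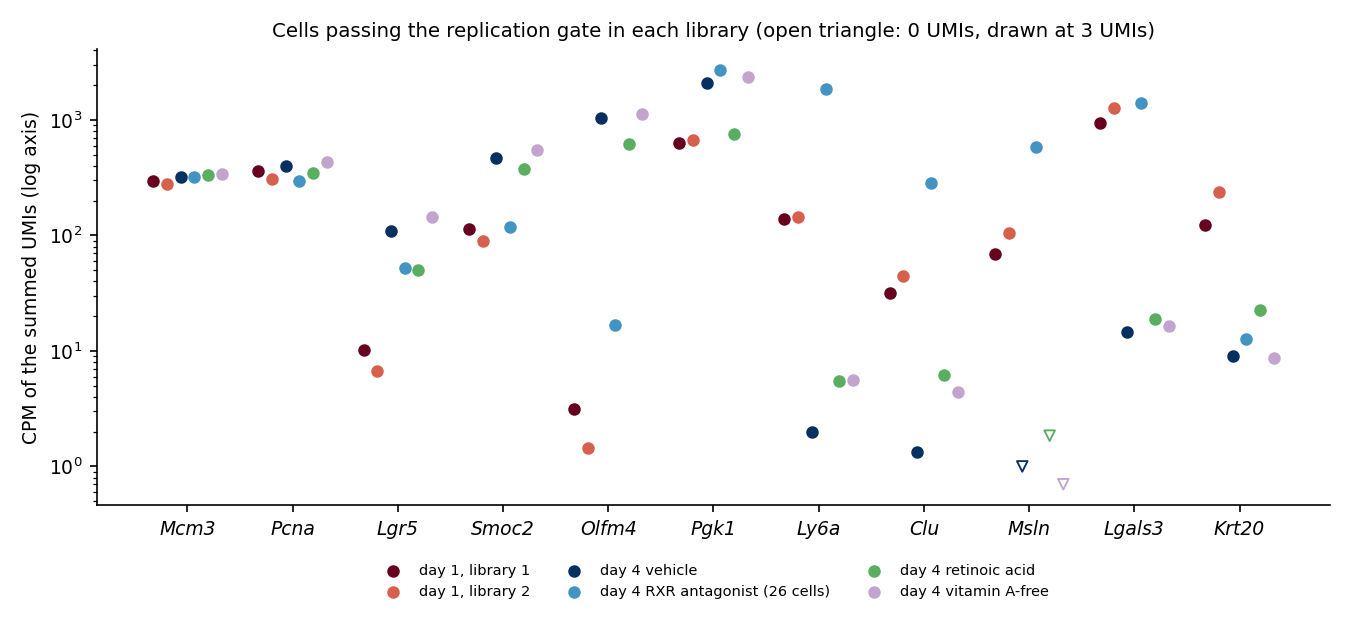
CPM of 11 genes in the cells passing the replication gate in each of the 6 libraries, on a log axis. Each point is 1 library, and an open triangle marks 0 UMIs, drawn at the level of 3 UMIs. Mcm3 lay between 278 and 341 CPM, Lgr5 and Smoc2 were highest in the vitamin A-free and vehicle cells of day 4, and Ly6a was highest in the antagonist library.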

How the data were processed

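UMI count matrices of 6 libraries made with a 10x Genomics 3-prime kit were used as deposited by the authors, 1 matrix a library with 55335 genes. The submitters' processing notes name bcl2fastq 2.17, Cell Ranger 3.1.0 and GRCm38, and no filter on cells is given in the sources used here. All barcodes were kept. Members were found by the rule on 8 genes, and these genes were left out of all counts of called genes. The members, the 37 gene lists and the tests were chosen with earlier results of these data known. UMIs were summed per library and class and fitted with edgeR 4.0.16 (R 4.3.3, TMM factors, filterByExpr, quasi-likelihood test, Benjamini-Hochberg adjustment over all genes tested, adjusted p under 0.05), with library as a block where classes of the same library were compared, since they share their source. Scripts were tested on simulated data. Genes were named by size: the 12 highest and 12 lowest called genes against all other day-1 cells and 10 of each elsewhere (at least 20 CPM, same direction in both libraries), plus up to 4 of each list, with others named for their role or as gate, marker or figure genes after their values were seen. Intervals are exact binomial ones. Doublets were kept, and Scrublet's highest scores (0.8% per 1000 barcodes) were left out as an alternative, because its own threshold marked too few. Promoters came from RefSeq. Alternatives were DESeq2 1.42.0, no TMM factors, no filter on low counts, other gate limits, thinned or depth-matched cells, no block, no doublets and single libraries.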

Additional observations from a re-analysis of the deposited data

Results flagged for a closer look

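The interaction term of edgeR's fit, which rests on 1 day-4 library, was used here. By that term, the day effect (day-4 vehicle against day 1) differed between gate-passing and other cells of the same libraries for many genes. It was more positive in gate-passing cells for 2610 genes and more negative for 2685. Among the genes described, the log2 difference was 2.32 for Mybl2, 2.21 for Lig1 and 2.21 for Cdc6, genes of the kind the gate was built on. It was 1.42 for Lgr5 and 1.28 for Olfm4, both crypt stem cell genes that were also high in mitotic-gate cells of day 4. It was -4.31 for Krt20 and -4.74 for Gsta1, which are high in absorptive cells. Krt20 was also low in mitotic-gate cells of day 4, with a UMI in 77 of 555. Groups of at most 2 libraries were too small to look for a library that stands apart.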

How the results depend on the processing

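Among the comparisons of classes, the higher and lower counts against all other day-1 cells were 207 and 299 with DESeq2, 581 and 699 with the other cells matched on UMIs, and 1995 and 2185 without mitotic-gate cells. Against mitotic-gate cells they were 413 and 616 with no filter on low counts and 64 and 72 with a replication limit of 3. Against cells below both gates they were 1582 and 1615 with DESeq2. Without the replicate block (library term), the counts were 0 and 12 against all other day-1 cells, 0 and 0 against mitotic-gate cells and 0 and 1 against cells below both gates. For day 4 against day 1 they were 464 and 513 with DESeq2, 679 and 585 with a replication limit of 8, and 734 and 824 with the gate set after thinning to 8000 UMIs. For the difference of the day effect they were 954 and 1170 with DESeq2 and 4218 and 1643 without TMM factors, and the higher count was 1477 with a limit of 8. The cause of these shifts was not tested. For the comparisons with day 4, no paired analysis was possible because the day-4 vehicle group has 1 library. Leaving out a day-1 library leaves no residual degrees of freedom, so log2 ratios per library were computed there, with no test. Without library 1 and without library 2, the remaining ratio was set against the fitted value. It lay further off than the spread between the libraries for 3 and 6 of 50 genes described against other day-1 cells. Against mitotic-gate cells this held for 5 and 10 of 22, and against cells below both gates for 3 and 2 of 13. It held for 16 and 16 of 33 for day 4 against day 1, and 5 and 5 of 8 for the difference of the day effect. The ratios add 1 CPM and are not on the fitted scale. Such a distance can thus come from the change of measure and does not show dependence on a library. The ratios of the libraries differed by over 1.5 times for 8, 6, 6, 3 and 0 of these genes, and 0 called genes changed direction.

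Of the genes described, the 1 that changed direction was Dbf4, at 0.60 on the log2 scale without mitotic-gate cells. Ghrl stood at 0.24 against mitotic-gate cells without its 3 barcodes, an alternative chosen after seeing the data. The share of barcodes passing the gate followed its limits. With vehicle at day 4 it was 0.769% thinned to 5000 UMIs, 3.18% thinned to 8000, 7.63% with a replication limit of 3, 1.88% with 8, and 3.38% with a mitosis limit of 5. In the same order it was 0.0299%, 0.319%, 1.32%, 0.448% and 0.448% with the RXR antagonist, 0.473%, 1.06%, 3.67%, 0.783% and 1.62% with retinoic acid, and 1.60%, 5.83%, 11.2%, 2.84% and 5.40% in vitamin A-free medium. In day-1 library 2 it was 3.47%, 10.6%, 18.4%, 5.00% and 6.15%. In day-1 library 1 it was 4.90% thinned to 5000, 21.7% with a limit of 3, 5.74% with 8 and 5.69% with a mitosis limit of 5. Under each of these settings both day-1 shares were above the vehicle share of day 4.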
